A study of Mus musculus with 12 samples.

Results

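The transcripts described here are 8 genes of the interleukin-1 family in mouse bone marrow-derived macrophages, taken as a named list from 24441 genes in the deposited tables. They are the cytokines Il1a, Il1b and Il18, the antagonists Il1rn and Il18bp, and the receptor chains Il1r1, Il1r2 and Il1rap. Each gene is represented by the transcript row with the most reads. The libraries form 4 groups of 3: DOT1L knockout (KO) cells given LPS, wild-type (WT) cells given LPS, untreated KO cells and untreated WT cells. DOT1L is the methyltransferase of lysine 79 of histone H3. All mice were C57BL/6, and the labels describe the DOT1L genotype as myeloid and name Lyz2 in parentheses. Marrow cells of every group had been grown for 7 to 8 days with 15% L929-conditioned medium, which supplies the growth factor M-CSF, and the LPS groups then received 10 ng/mL of Escherichia coli O111:B4 LPS for 3 h. The ages and sexes of the mice and the deleted exons are not stated in the labels.

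IL-1α and IL-1β are inflammatory cytokines that act through the same receptor, in which the binding chain IL-1R1 recruits the accessory chain IL-1RAP and signals through MyD88 and IRAK kinases to NF-kB. The pathway is restrained outside the cell by the receptor antagonist encoded by Il1rn, which occupies IL-1R1 without signalling, and by the decoy receptor IL-1R2; IL-18 is held in check by the soluble IL-18 binding protein. Macrophages are a main source of IL-1β, whose precursor is made after Toll-like receptor stimulation and then cut by caspase-1 in the inflammasome, a step that transcript levels do not report.

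The promoters of the 3 genes with the highest levels after LPS are shown first, because their start regions differ in the letters they hold. Each is a RefSeq window of GRCm38.p6 from 250 bases before to 50 bases after a transcription start, written 5′ to 3′ on the strand of the gene. Il1a lies on chr2:129299609-129310186 and Il1b on chr2:129364569-129371164, both on the minus strand, and Il1rn on chr2:24336860-24351491 on the plus strand. Capitals mark every match, on either strand, to 5 motifs: NF-kB (GGG and CC with any 5 bases between), AP-1 (TGANTCA), C/EBP (TTNNGNAA), the TATA box (TATAAA) and PU.1 (GAGGAA).
Il1a promoter, chr2:129309923-129310222, minus strand: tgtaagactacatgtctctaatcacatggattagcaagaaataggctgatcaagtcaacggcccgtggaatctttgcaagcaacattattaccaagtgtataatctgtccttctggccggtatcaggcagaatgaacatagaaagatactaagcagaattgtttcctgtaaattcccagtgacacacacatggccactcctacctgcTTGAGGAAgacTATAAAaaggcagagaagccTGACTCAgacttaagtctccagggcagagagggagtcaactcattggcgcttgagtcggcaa
Il1b promoter, chr2:129371090-129371389, minus strand: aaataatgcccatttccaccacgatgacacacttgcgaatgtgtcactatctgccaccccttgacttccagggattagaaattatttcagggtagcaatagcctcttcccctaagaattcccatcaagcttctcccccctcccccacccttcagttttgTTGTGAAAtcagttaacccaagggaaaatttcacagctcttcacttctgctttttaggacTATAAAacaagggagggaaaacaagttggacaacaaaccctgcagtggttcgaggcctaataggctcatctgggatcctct
Il1rn promoter, upstream start, chr2:24336610-24336909, plus strand: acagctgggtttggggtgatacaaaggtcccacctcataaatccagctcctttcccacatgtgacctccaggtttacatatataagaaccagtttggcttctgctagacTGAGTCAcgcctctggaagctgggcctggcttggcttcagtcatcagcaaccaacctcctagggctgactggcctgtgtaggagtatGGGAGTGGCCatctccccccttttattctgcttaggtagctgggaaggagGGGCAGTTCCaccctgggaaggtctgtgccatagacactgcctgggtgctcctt
Il1rn promoter, downstream start, chr2:24345041-24345340, plus strand: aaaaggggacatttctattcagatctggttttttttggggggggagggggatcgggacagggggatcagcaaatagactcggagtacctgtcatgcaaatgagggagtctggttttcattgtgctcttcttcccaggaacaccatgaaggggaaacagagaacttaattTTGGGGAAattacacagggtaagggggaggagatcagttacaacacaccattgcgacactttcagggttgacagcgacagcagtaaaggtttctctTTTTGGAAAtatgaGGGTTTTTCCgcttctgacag

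Il1a and Il1b each held a TATA box close to the start, with its first base 32 and 31 bases upstream. A TATA match occurred in 13.6% of all 32851 promoter windows of this length. Il1a also held an AP-1 match 12 bases upstream, a match that 7.81% of the windows held, and overlapping C/EBP and PU.1 matches beginning 43 and 41 bases upstream. The only other match in Il1b was to C/EBP, 91 bases upstream. Neither window held the NF-kB letters, whereas the upstream Il1rn window held them beginning 54 and 4 bases upstream and the downstream one held them once. A further Il1rn window, chr2:24345121-24345420, overlaps the downstream one and is not printed; it held the TATA letters on the opposite strand, 14 bases downstream of its start. The background shares were 50.8% for NF-kB, 40.7% for C/EBP and 28.3% for PU.1, so these short letter patterns are common.

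Levels below are CPM, read counts divided by library size and put on a single scale for all 12 libraries, and differences are log2 fold changes with their standard errors. A gene was called where its p-value, adjusted over all genes tested, was under 0.05. Libraries held 8642533 to 13542783 reads counted on 1 transcript per gene. WT replicate 1 stood apart from the other WT libraries in both conditions: it had the 2 lowest totals and lay at -36.1 without LPS and -35.6 with LPS on the second principal component, where every other library lay between -3.56 and 12.9. Replicate 2 of every group had Y-linked transcripts and almost no Xist, and the other libraries had the reverse. Dot1l itself was at 65.2 to 73.3 CPM in KO and 60.6 to 69.2 CPM in WT cells with LPS, and at 85.7 to 97.8 CPM in untreated KO and 82.4 to 111 CPM in untreated WT cells. Its reads were counted over the whole transcript and do not check the deletion, whose exons are not given. The 10 macrophage markers summed to 11182 to 12874 CPM in KO and 14472 to 17712 CPM in WT cells with LPS, and to 9072 to 10270 CPM in KO and 11904 to 15162 CPM in WT cells without, with no overlap between genotypes. Without Lyz2, a choice made after its values were seen, the other 9 summed to 8208 to 9437 CPM in KO and 7853 to 9741 CPM in WT cells with LPS and to 6444 to 7239 CPM in KO and 6101 to 7952 CPM in WT cells without, which overlapped. Of 12 neutrophil markers, Ly6g, Elane, Prtn3, Retnlg and Cxcr2 were under 1 CPM in every library and the other 7 were not, led by Csf3r at a mean of 63.2 CPM, Ngp at 8.55 and S100a9 at 8.43. Of 10 dendritic cell markers, Flt3, Clec9a and Siglech were under 1 CPM, while Itgax had a mean of 123 CPM and Bst2 of 112 CPM. The fibroblast collagens Col1a1, Col1a2 and Col3a1 were under 1 CPM as well. In such bulk samples, fewer cells of a type and less RNA per cell cannot be told apart. The series text calls the libraries biological replicates without tying them to animals, and p-values measure the spread between these libraries.

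LPS raised 7 of the 8 genes in KO cells and 7 of 8 in WT cells, and lowered none. By the same test 61.2% of 11982 genes changed in KO cells, with 30.3% higher, and 57.4% changed in WT cells, with 27.6% higher. The median log2 change over the 8 genes was 2.20 in KO and 2.19 in WT cells, beside -0.02 in KO and -0.05 in WT cells over all genes tested. The IL-1 agonists Il1a and Il1b moved most, by 285- to 521-fold, and Il1rn, Il18 and Il18bp rose by 4.25- to 7.65-fold. Il1r2 was the gene that did not pass in either genotype.

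Il1b, the gene of secreted IL-1β, was at 1278, 889 and 1458 CPM in the 3 KO libraries with LPS, against 2.67, 2.94 and 2.60 CPM in untreated KO libraries. In WT cells it was at 723, 792 and 785 CPM with LPS, against 1.16, 1.76 and 1.40 CPM without. Its log2 change was 8.79 ± 0.21 in KO cells (441-fold, adjusted p = 6.3e-13) and 9.02 ± 0.22 in WT cells (521-fold, adjusted p = 9.7e-13). These changes ranked 28 and 25 from the top of all 11982 genes. Il1b was thus an abundant message with LPS, at 4832 to 15520 reads a library, and a scarce one without, at 12 to 43 reads.

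Il1a encodes IL-1α, which is active already as a precursor and can work from the cell surface or after cell damage. It was at 1173, 771 and 1135 CPM in KO cells with LPS, against 2.17, 2.55 and 2.27 CPM in untreated KO cells. In WT cells its levels were 709, 798 and 931 CPM with LPS, against 3.97, 1.90 and 2.87 CPM untreated. The log2 changes were 8.78 ± 0.25 in KO cells (440-fold, adjusted p = 3.2e-12) and 8.16 ± 0.25 in WT cells (285-fold, adjusted p = 5.9e-12), at ranks 30 and 38. The antisense transcript Gm14023 shares 8217 bases with the Il1a gene and reached 128 CPM. The strand setting of the counting was not given in the sources used here, and where the genes overlap their reads cannot be told apart. The same holds for the shorter or scarcer antisense overlaps of Il1b, Il18, Il18bp, Il1r2 and Il1rap. The overlap of Il18bp is short, at 80 bases, but its partner is the protein-coding gene Numa1, which reached 212 CPM.

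**Figure D1:**
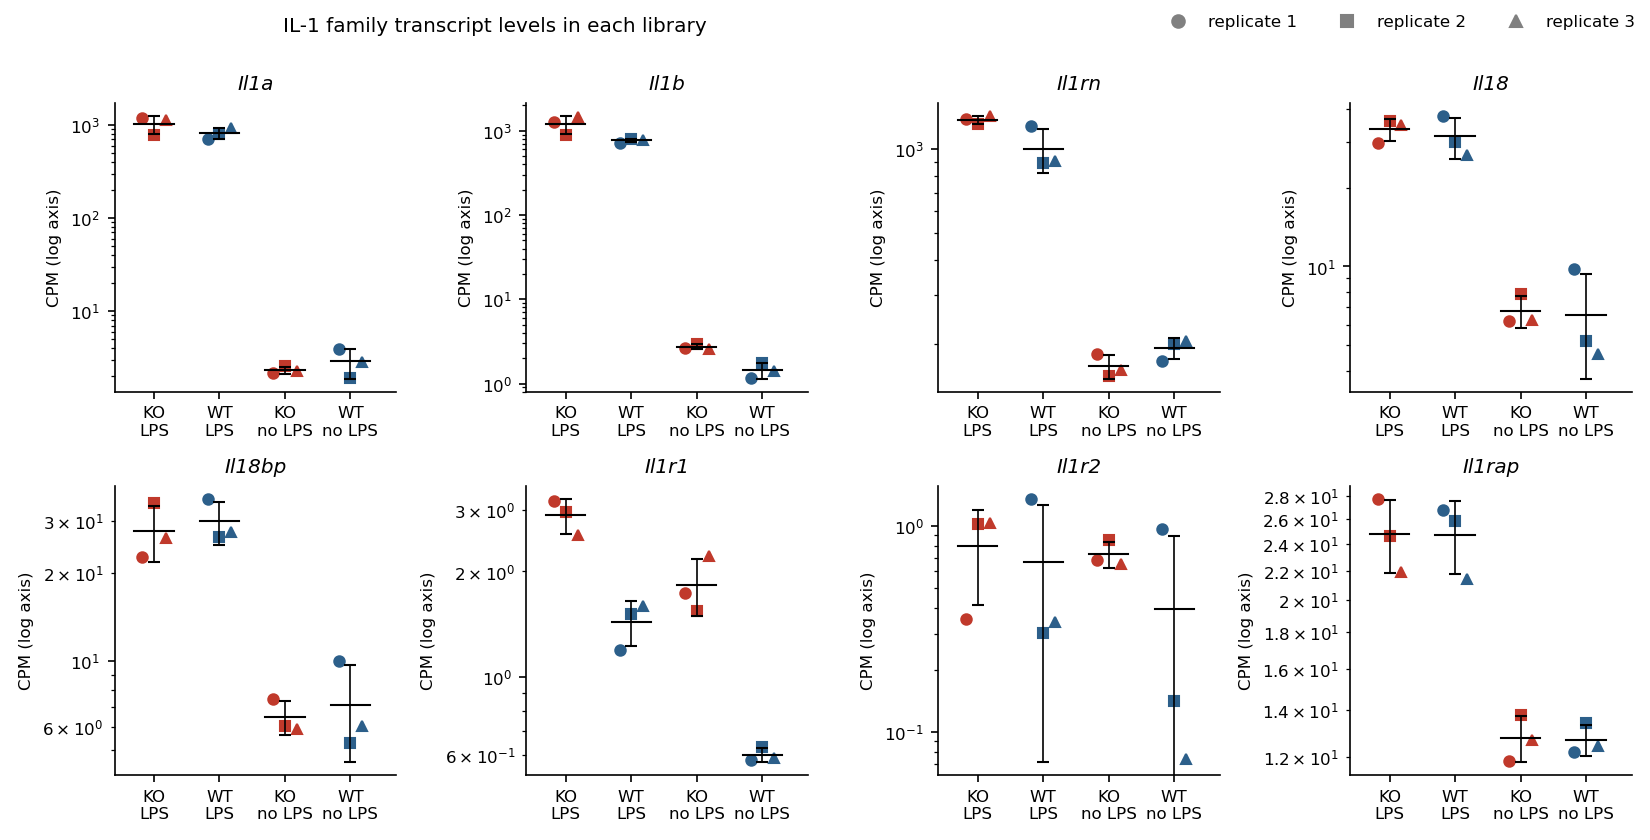
CPM of the 8 genes in each library on a log axis, with KO left of WT and LPS left of untreated. Points are libraries shaped by replicate number, lines are group means and bars are SD (n = 3); Il1a and Il1b span more than 2 orders of magnitude between conditions, and WT replicate 1 carries the highest untreated WT values of Il1a, Il18, Il18bp and Il1r2.

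Il18, an inducer of interferon gamma made as a precursor that caspase-1 activates, lies on chr9:50554700-50581841 of the plus strand and was already present in untreated cells. It was at 29.6, 35.8 and 34.7 CPM in KO cells with LPS, against 6.21, 7.88 and 6.24 CPM in untreated KO cells. WT cells had 37.6, 29.8 and 26.7 CPM with LPS, against 9.77, 5.20 and 4.64 CPM without. The log2 changes, 2.30 ± 0.22 in KO and 2.28 ± 0.23 in WT cells, differed by far less than their errors (adjusted p = 6.9e-07 in KO and 1.1e-06 in WT cells).

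Both soluble antagonists rose with LPS. Il1rn, the receptor antagonist gene, was the one member with a high level in untreated cells. It was at 1281, 1229 and 1315 CPM in KO cells with LPS, against 185, 154 and 161 CPM in untreated KO cells. WT cells had 1214, 896 and 908 CPM with LPS, against 174, 199.9 and 206 CPM without. All LPS libraries were therefore far above all untreated ones, with log2 changes of 2.93 ± 0.13 in KO (7.65-fold, adjusted p = 1.5e-10) and 2.38 ± 0.13 in WT cells (5.20-fold, adjusted p = 1.2e-09). Il18bp, on chr7:102015074-102018232 of the minus strand, whose product binds and neutralises IL-18, changed by 2.10 ± 0.22 in KO cells and 2.09 ± 0.23 in WT cells on the log2 scale (adjusted p = 1.9e-06 in KO and 2.7e-06 in WT cells). Its levels were 22.7, 34.4 and 26.3 CPM in KO and 35.6, 26.5 and 27.6 CPM in WT cells with LPS, and 5.91 to 7.46 CPM in KO and 5.27 to 10.1 CPM in WT cells without.

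**Figure D2:**
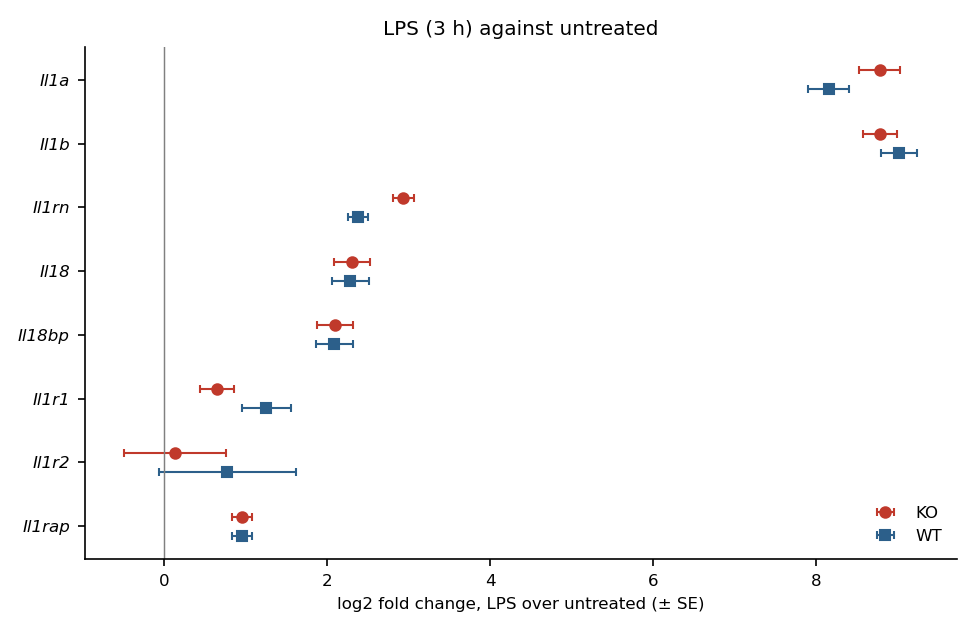
Log2 fold change of each member with LPS over untreated, with its standard error, in KO cells (circles) and WT cells (squares). Il1a and Il1b lie between 8.16 and 9.02, Il1rn, Il18 and Il18bp between 2.09 and 2.93, and the receptor chains between 0.14 and 1.26.

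The receptor chains were the least abundant members per length with LPS. Il1r1 and Il1r2 lie close together on the plus strand, at chr1:40222480-40316201 and chr1:40084692-40125230 (GRCm38.p6). Il1rap, the accessory chain shared by the IL-1 and IL-33 receptors, changed by 0.96 ± 0.12 on the log2 scale in both KO and WT cells (adjusted p = 1.1e-05 in KO and 1.5e-05 in WT cells). Its levels were 27.8, 24.6 and 21.9 CPM in KO and 26.8, 25.9 and 21.4 CPM in WT cells with LPS, and 11.9 to 13.8 CPM in KO and 12.2 to 13.4 CPM in WT cells without. Its KO and WT ranges overlapped in both conditions. Il1r1, the signalling receptor, rose by 0.65 ± 0.21 in KO cells (adjusted p = 0.0144) and by 1.26 ± 0.30 in WT cells (adjusted p = 0.0025). It had only 27 to 36 reads in KO and 8 to 15 in WT libraries with LPS, and 20 to 34 in KO and 6 to 9 in WT libraries without.

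The Il1r1 increase depended on the scaling and on single libraries. In the authors' RPKM values, which are scaled to each library's total, the median of all genes moved by -0.46 in KO and -0.44 in WT cells on the log2(RPKM + 1) scale. The share of called genes that were higher was then 18.7% in KO and 18.4% in WT cells, against 49.5% in KO and 48.1% in WT cells by edgeR's test on counts. On that scale Il1r1 changed by 0.02 ± 0.06 in KO cells (adjusted p = 0.753), and by 0.10 in WT cells (adjusted p = 0.129). With a pseudocount of 0.1 the WT call held and the KO call did not (0.06, adjusted p = 0.767). The KO call was also lost without untreated KO replicate 1, untreated KO replicate 2 or KO LPS replicate 1 (log2 changes 0.60, 0.53 and 0.58, adjusted p = 0.0535, 0.0630 and 0.0598). It was lost without replicate 2 of every group as well (0.54, adjusted p = 0.153). The LPS calls of Il1a, Il1b, Il1rn, Il18, Il18bp and Il1rap held under every alternative tried.

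Il1r2, the decoy receptor, had too few reads for a firm comparison. It had 4, 11 and 11 reads in KO and 9, 3 and 3 in WT libraries with LPS, and 11, 11 and 10 in KO and 10, 2 and 1 in WT libraries without. In each WT set the highest count was that of replicate 1, the library that stands apart. Its log2 change was 0.14 ± 0.63 in KO and 0.77 ± 0.84 in WT cells (adjusted p = 0.869 in KO and 0.452 in WT cells), and without untreated WT replicate 1 the WT change became 2.38 with an adjusted p of 0.0322.

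Il1rap, on chr16:26581509-26730128 of the plus strand, had 4 transcript rows with unlike counts. The row used here held 126 to 314 reads a library, and 66.8% to 81.0% of these were in excess of the 2 next rows, whose counts were identical in all 12 libraries. This excess was 77.0% or more in WT LPS replicates 1 and 3 and untreated WT replicate 1, and at most 70.2% in every other library. With the row of fewest reads in its place, Il1rap changed with LPS by 1.0 ± 0.21 in KO cells (adjusted p = 0.00077) and 0.64 ± 0.22 in WT cells (adjusted p = 0.0236). The difference between those changes, 0.37 ± 0.30, did not pass (unadjusted p = 0.244). For the counts of Il1rn and Il1r1 the choice of row hardly mattered: the lowest row held 99.9% of the reads of the highest for Il1rn and 100% for Il1r1.

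Between genes, levels were compared as the authors' RPKM of the row used, which divides by transcript length. The place of Il1rn with LPS depends on the length of its row, as described below. With LPS the order in KO cells was Il1b (667 ± 174 RPKM, SD, n = 3), Il1a (386 ± 91.1), Il1rn (380 ± 21.6), Il18 (28.6 ± 2.51), Il18bp (14.7 ± 2.80), Il1rap (3.99 ± 0.485), Il1r1 (0.444 ± 0.0491) and Il1r2 (0.441 ± 0.211). WT cells with LPS had the same order for the first 6, at 413 ± 44.6, 299 ± 56.9, 291 ± 32.7, 26.1 ± 3.00, 15.3 ± 1.57 and 3.88 ± 0.349 RPKM. In both genotypes the ranges of Il1a and Il1rn overlapped, as did those of Il1r1 and Il1r2, and the ranges of the other neighbours were apart. Without LPS, Il1rn led by far, at 74.7 ± 7.87 RPKM in KO and 82.6 ± 11.1 RPKM in WT cells, followed by Il18 at 8.74 ± 1.09 in KO and 7.91 ± 2.95 in WT cells. Il1b was at 2.26 ± 0.110 RPKM in untreated KO cells, above Il1a at 1.31 ± 0.0914. In untreated WT cells the ranges of Il1a, at 1.54 ± 0.477, and Il1b, at 1.14 ± 0.284, overlapped, as did those of Il18 and Il18bp.

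On the RPKM of the rows used, the balance between antagonist and agonist messages turned over with LPS. The ratio of Il1rn to the sum of Il1a and Il1b in RPKM was 0.374 ± 0.0835 in KO and 0.418 ± 0.110 in WT cells with LPS, and 21.0 ± 3.14 in KO and 31.1 ± 5.85 in WT cells without (SD, n = 3 each). On these rows, antagonist reads outnumbered agonist reads per length in every untreated library, and the agonists did so in every LPS library. The Il1rn rows held nearly the same reads but have lengths of 728, 1986 and 2474 bases. A shorter length raises the ratio, so the LPS side of the turnover depends on the row. The ratio was not taken with the other rows. Between genotypes the untreated ratios did not overlap, at 17.8 to 24.1 in KO and 24.4 to 35.5 in WT cells, and the two-sided exact permutation p was 0.1, the smallest that 3 against 3 libraries allow. With LPS the ratios of KO and WT overlapped (exact permutation p = 0.5). The ratio of Il1b to Il1a was 1.73 ± 0.145 in KO and 1.40 ± 0.140 in WT cells with LPS, and 1.72 ± 0.0697 in KO and 0.834 ± 0.477 in WT cells without, with no overlap in either condition (exact permutation p = 0.1 each). Il18bp over Il18 was 0.511 ± 0.0706 in KO and 0.589 ± 0.0452 in WT cells with LPS, with overlapping groups (exact permutation p = 0.3). Il1a, Il1b and Il1rn together took 0.290% ± 0.0504 of the reads in KO and 0.211% ± 0.00974 in WT cells with LPS, without overlap (exact permutation p = 0.1). Of 8 such comparisons, the 4 without overlap had a Benjamini-Hochberg adjusted p of 0.2, and none could pass a threshold of 0.05 with this number of libraries.

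**Figure D3:**
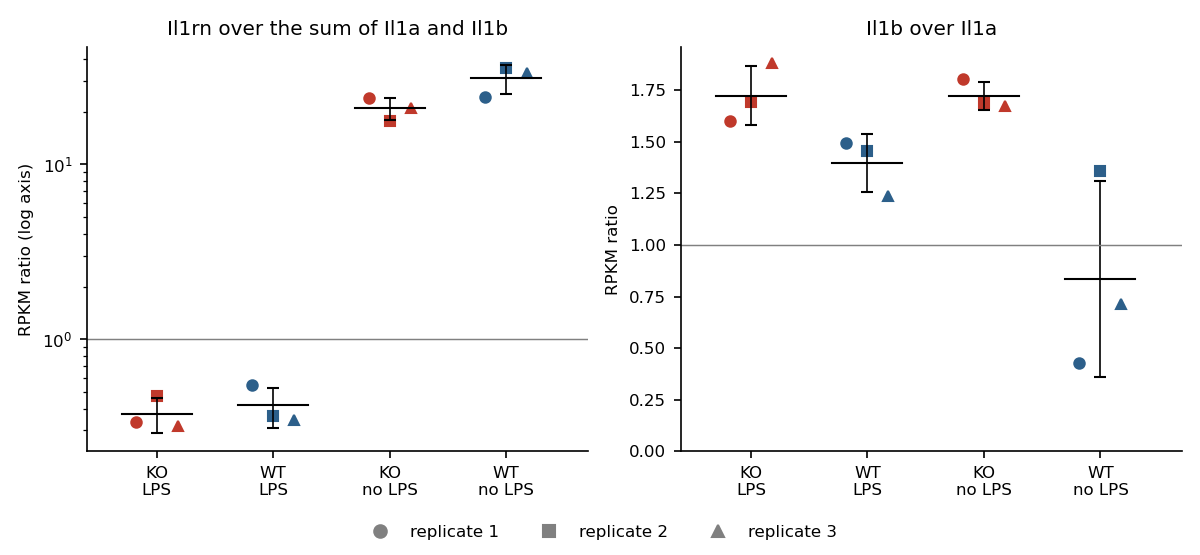
RPKM ratios in each library: Il1rn over the sum of Il1a and Il1b on a log axis (left), and Il1b over Il1a on a linear axis from 0 (right), with group means and SD (n = 3) and a grey line at 1. Every LPS library lies under 1 and every untreated one above 17 in the left panel, and in the right panel each KO library lies above the WT libraries of its condition.

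Between genotypes, no member passed the threshold in either condition. With LPS, edgeR's test called 0 of 8 members, beside 1.13% of 11262 genes in all and 1% higher in KO. Without LPS it called 0 of the 7 members tested, beside 0% of 11620 genes, where DESeq2 called 49 genes and limma-voom 0. An unadjusted p under 0.05 was reached by 3 members with LPS (Il1b, Il1r1 and Il1rn), beside 13.8% of genes, and by 2 without, beside 7.24% of genes: Il1b, and Il1r1, which entered that test through its KO libraries alone. DESeq2 called 1 member with LPS and 0 without, and limma-voom 0 in both. Il1r2 was left out of that test by the filter on low counts. The median log2 difference over the members was 0.33 with LPS and 0.03 without, beside -0.01 with LPS and -0.00 without over all genes. With such errors, the absence of a call does not show equal levels.

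Il1b and Il1r1 were the members whose KO libraries all lay above all WT libraries in both conditions. The same held for 2.5% of the 10956 genes tested in both, a share that gives no support for Il1r1, whose untreated WT levels were all under the filter. For Il1b the KO levels of 889 to 1458 CPM with LPS stood against 723 to 792 CPM in WT cells, a log2 difference of 0.65 ± 0.15 (1.57-fold, adjusted p = 0.0763). Without LPS the difference was 0.92 ± 0.23 (1.90-fold, adjusted p = 0.352), at 2.60 to 2.94 CPM in KO and 1.16 to 1.76 CPM in WT cells. KO replicate 2 was the lowest KO library for Il1b and Il1a with LPS. Without it the Il1b difference was 0.83 with an adjusted p of 0.0152, and DESeq2 on all libraries gave 0.65 with an adjusted p of 0.0039. Over the alternatives tried, the adjusted p of Il1b with LPS ranged over 0.0039 to 0.366.

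For Il1r1 the KO libraries had 3.18, 2.95 and 2.54 CPM with LPS, against 1.20, 1.52 and 1.59 CPM in WT libraries. Without LPS they had 1.74, 1.55 and 2.21 CPM, against 0.580, 0.632 and 0.589 CPM in WT cells. The differences were 0.98 ± 0.26 with LPS (adjusted p = 0.113) and 1.62 ± 0.28 without (adjusted p = 0.226). Untreated Il1r1 passed the filter, 0.874 CPM in 3 libraries, through the KO libraries alone, so that being tested already required a difference at that level. It was called without LPS when untreated WT replicate 1 was left out (1.60, adjusted p = 0.0182), in a fit that called 749 of 11814 genes. It was also called when all 12 libraries were fitted together (1.59, adjusted p = 0.0315). Il1r1 is also a gene of endothelial cells and fibroblasts, and the stromal marker list moved the same way. Its summed level was 9.37 to 12.96 CPM in KO and 4.66 to 7.94 CPM in WT cells with LPS, and 2.94 to 3.25 CPM in KO and 1.41 to 1.77 CPM in WT cells without. Of those 8 genes Col1a1, Col1a2, Col3a1, Dcn and Lum were under 1 CPM in all libraries, and none of the list was called between genotypes. The part of such cells in the Il1r1 difference was not tested.

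**Figure D4:**
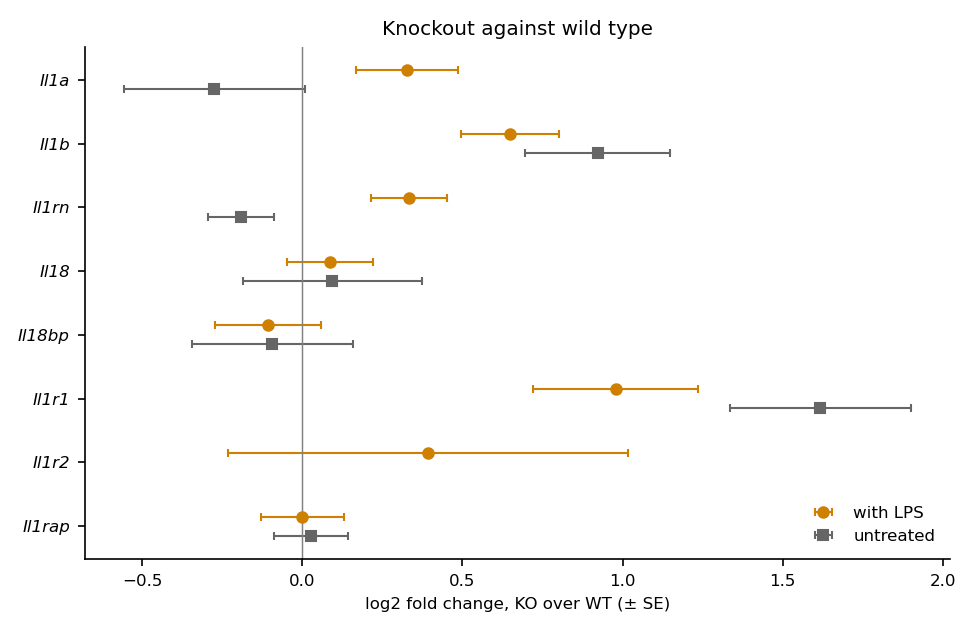
Log2 fold change of each member in KO over WT cells, with its standard error, with LPS (circles) and untreated (squares); Il1r2 was not tested untreated. Il1b and Il1r1 lie above 0 in both conditions, Il1a and Il1rn lie above 0 with LPS and below 0 without, and no point passed the threshold.

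None of the remaining members was called with all libraries in the test. Il1rn was higher in each KO library than in any WT library with LPS, at 1229 to 1315 CPM against 896 to 1214 CPM, by 0.33 ± 0.12 (adjusted p = 0.241). Such separation in the higher direction was seen in 11.1% of genes with LPS and 6.76% without. WT LPS replicate 1 was the highest of the WT libraries, and without it the Il1rn difference was 0.49 with an adjusted p of 0.00032. That fit called 545 of 11452 genes, against 127 of 11262 with all libraries of the condition. Without LPS, Il1rn was at 154 to 185 CPM in KO and 174 to 206 CPM in WT cells, with a difference of -0.19 ± 0.10 (adjusted p = 0.786). Il1a differed by 0.33 ± 0.16 with LPS (adjusted p = 0.399) and by -0.28 ± 0.28 without (adjusted p = 0.919), with overlapping groups in both conditions. Il18, Il18bp and Il1rap differed by -0.11 to 0.09 in either condition, with adjusted p-values of 0.824 or more. Il1r2 gave 0.39 ± 0.62 with LPS (adjusted p = 0.833). Without LPS it entered a fit only under some alternatives, where leaving out untreated WT replicate 1 gave 2.67 ± 0.69 (adjusted p = 0.0309), with the gene tested through its KO libraries alone, and no filter gave 1.05 ± 0.68 (adjusted p = 0.835).

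The summed monocyte markers also separated the genotypes with LPS. Of the 8 markers, 7 were higher in KO (median log2 difference over the 8 of 0.45) and only 2 were called. The summed level of the 8 monocyte markers was 338 to 342 CPM in KO and 204 to 279 CPM in WT cells with LPS, where Fn1 (1.18 ± 0.11, adjusted p = 0.0014) and Vcan (0.51 ± 0.10, adjusted p = 0.0407) were called. Without LPS the sums were 101 to 135 CPM in KO and 58.4 to 104 CPM in WT cells, which overlapped. Lyz2, the lysozyme gene at the locus named in the labels, differed by -1.17 ± 0.10 in KO over WT cells with LPS (adjusted p = 0.0014) and by -1.16 ± 0.11 without (adjusted p = 0.0782). Monocytes and neutrophils make Il1b, and their part in its difference was not tested. The neutrophil list overlapped between genotypes, at 121 to 137 CPM in KO and 101 to 171 CPM in WT cells with LPS and 56.1 to 58.8 CPM in KO and 39.4 to 74.3 CPM in WT cells without. The macrophage list was apart between genotypes with Lyz2 and overlapped without it. The part of the macrophage list's difference in the genotype differences of Il1b and Il1r1 was not tested. The summed dendritic cell list overlapped too, at 285 to 337 CPM in KO and 221 to 306 CPM in WT cells with LPS. Its 5 tested genes were nevertheless all higher in KO with LPS (median log2 difference 0.66), and 0 of them were called. The mast cell and basophil list also overlapped, at 10.6 to 13.9 CPM in KO and 6.59 to 12.8 CPM in WT cells with LPS. Of 10 lymphocyte genes 9 were under 1 CPM in every library, and the tenth, the kinase gene Lck, was higher in KO with LPS by 0.68 ± 0.12 (adjusted p = 0.0278). Lck itself rose with LPS, by 6.00 in KO and 6.17 in WT cells on the log2 scale, and passed the filter through its LPS libraries alone.

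The LPS response of no member differed between genotypes after adjustment. In the test of the difference itself 0 of 8 members and 0% of 11982 genes were called, with 288 genes (2.4%) at an unadjusted p under 0.05, among them 1 member, and DESeq2 and limma-voom also called 0. Il1rn had the smallest p among the members: its LPS response was larger in KO cells by 0.56 ± 0.17 on the log2 scale (unadjusted p = 0.0055, adjusted p = 1). Without WT replicate 1 in both conditions this difference was 0.75 ± 0.10 with an adjusted p of 0.0031, and 24 genes were called. For Il1a the difference of responses was 0.62 ± 0.33 (unadjusted p = 0.0837), for Il1b -0.24 ± 0.30 (unadjusted p = 0.436) and for Il1r1 -0.60 ± 0.36 (unadjusted p = 0.154). Il18, Il18bp and Il1rap lay within 0.02 of 0.

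The genes with the most similar profiles are given by the root mean square (RMS) difference between mean-centred log2 CPM over the 12 libraries, searched among 11390 genes. It is a description of these libraries. The nearest to Il1b were Socs3, a feedback inhibitor of cytokine signalling (RMS 0.381), and Il27, an IL-12 family cytokine subunit (0.391). Il1a was nearest to Mir155hg, the host transcript of microRNA 155 (0.438), and Tnfsf15, a TNF family ligand (0.455). Mir155hg had untreated means of only 0.0929 CPM in KO and 0.0322 CPM in WT cells, so that part of its profile rests on almost no reads. Among members, Il1a and Il1b differed by 0.562. Il1rn was nearest to Fmnl2, a formin that shapes actin (0.125), and Rmdn3 (0.140). Il18 was nearest to the integrin chain Itga4 (0.127) and to Tent5a (0.130), Il18bp to the splicing factor Tra2a (0.145) and Prdm9 (0.146), and Il1rap to the adhesion adaptors Lims1 (0.0978) and Vezt (0.102). Il1r1 was nearest to Abhd6, a lipid hydrolase (0.206), whose mean was 2.80 CPM in KO and 1.18 CPM in WT cells with LPS and 1.70 CPM in KO and 0.536 CPM in WT cells without, and to the growth factor Bmp2 (0.249). For Il1r2 the nearest were Plxdc2 (0.351) and Ms4a4a (0.378).

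Other genes of the pathway were taken from 6 lists. Of 10 names given as other IL-1 family ligands, 6 were in the tables and 1, the alarmin Il33, passed the filter. Il33 had 47 to 61 reads in KO and 10 to 16 in WT libraries with LPS, against 0 or 1 in untreated libraries, and was called higher with LPS in both genotypes (adjusted p = 5.7e-08 in KO and 5.8e-06 in WT cells). It passed the filter through its LPS libraries alone, so that being tested already required a rise. Against the floor of 3 counts per library Il33 was at least 6.69-fold higher with LPS in WT cells. Between genotypes with LPS it was higher in KO by 1.61 ± 0.23 (adjusted p = 0.0087), a call lost without KO LPS replicate 3 or WT LPS replicate 3 (adjusted p = 0.0702 and 0.0704) or without replicate 2 of every group (adjusted p = 0.0925), where the difference was 1.57, 1.72 and 1.65.

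Of 7 other family receptors, 4 passed the filter. Il18rap, the signalling chain of the IL-18 receptor, rose with LPS by 2.47 ± 0.22 in KO and 2.43 ± 0.25 in WT cells, and was higher in KO than in WT cells with LPS by 0.84 ± 0.16 (adjusted p = 0.0405). That genotype call was lost without replicates 2 or 3 of either LPS group, where the adjusted p ranged over 0.0754 to 0.209, as well as without replicate 2 of every group (0.255), with the replicate block (0.110), on log2(RPKM + 1) (0.0520) and with all 12 libraries fitted (0.0738); the difference was 0.64 to 0.84 in these. Its partner Il18r1 had at most 3 reads in any library. Il1rl1, the IL-33 receptor, fell by 0.67 in KO cells (log2 change -0.67 ± 0.23, adjusted p = 0.0205) and by 1.13 in WT cells (-1.13 ± 0.27, adjusted p = 0.0027). The inhibitory receptor Sigirr was called lower with LPS, at -0.84 ± 0.32 in KO and -0.96 ± 0.36 in WT cells (adjusted p = 0.0342 in KO and 0.0334 in WT cells). The IL-36 receptor gene Il1rl2 was called lower in KO cells (-0.53 ± 0.21, adjusted p = 0.0454). Most of these decreases were lost on leaving out single libraries: the adjusted p reached 0.0970 for Il1rl1 (without KO LPS replicate 2, and also lost without untreated KO replicates 1 or 3), 0.184 for Il1rl2 (lost without untreated KO replicates 1 or 3 or KO LPS replicates 1 or 2), and 0.135 in KO and 0.115 in WT cells for Sigirr (lost without any of 5 of the KO libraries and 4 of the WT libraries). The Il1rl1 decrease in WT cells held with any single library left out and was lost with the transcript of fewest reads (-0.67, adjusted p = 0.0907). Leaving out replicate 2 of every group ended the KO calls of Il1rl1, Il1rl2 and Sigirr (adjusted p = 0.0621, 0.109 and 0.0905). Il1rl2 was also lost with DESeq2 size factors (0.0520), with no filter (0.0533) and by the DESeq2 test (0.0676), and Sigirr in WT cells with the 6 WT libraries fitted alone (0.0901) and without WT replicate 1 in both conditions (0.0735). The median of the 4 was -0.60 in KO and -0.63 in WT cells, beside -0.02 in KO and -0.05 in WT cells over all genes.

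Of 20 genes of IL-1 processing and release, 10 rose and 6 fell in KO cells and 10 rose and 7 fell in WT cells with LPS (median 0.26 in KO and 0.20 in WT cells). Over all genes 30.3% rose and 30.9% fell in KO cells and 27.6% rose and 29.8% fell in WT cells. The genes named from these lists are those with the smallest p, not the largest change. The inflammasome sensor Nlrp3 rose by 2.93 ± 0.11 in KO and 2.92 ± 0.11 in WT cells, and the proteases Casp4 and Casp1 rose by 3.19 and 2.06 in KO and by 3.06 and 1.91 in WT cells. Gsdmd, the pore through which IL-1β leaves the cell, rose by 1.43 in KO and 1.34 in WT cells. Of 26 genes of receptor signalling, 16 rose and 7 fell in KO cells and 15 rose and 6 fell in WT cells (median 0.60 in KO and 0.50 in WT cells), among them the NF-kB subunits Nfkb2 (3.60 in KO, 3.44 in WT) and Nfkb1 (2.71 in KO, 2.72 in WT), the kinase Map3k8 (3.31 in KO, 3.14 in WT) and the adaptor Myd88 (2.22 in KO, 2.15 in WT). Of 18 genes listed as brakes on the pathway, 16 rose and 0 fell in each genotype (median 3.18 in KO and 3.24 in WT cells). Among them were Socs3 (8.77 in KO, 9.01 in WT), the NF-kB inhibitor Nfkbia (4.87 in KO, 4.54 in WT), Nfkbiz (6.63 in KO, 6.60 in WT) and Socs1 (7.75 in KO, 7.80 in WT). Brake is only the name of the list. Whether each of its genes, Nfkbiz included, restrains the pathway in these cells was not tested. Socs1 passed the filter through its LPS libraries alone. All 13 IL-1 target genes that passed the filter, of 15, rose in both genotypes. In the untreated libraries alone 8 passed it. The rest, such as Csf2, were tested through their LPS libraries, where they are high, so that being tested already required a rise. LPS reaches NF-kB directly as well as through IL-1, and these routes cannot be told apart here. On the authors' RPKM scale, where the median gene was lower with LPS, the processing list had 8 genes higher and 11 lower in KO and 8 higher and 10 lower in WT cells, and its median was -0.27 in KO and -0.26 in WT cells. The signalling list then had 12 higher and 10 lower in KO and 12 higher and 11 lower in WT cells, and the brakes 13 higher and 2 lower in KO and 12 higher and 2 lower in WT cells.

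**Figure D5:**
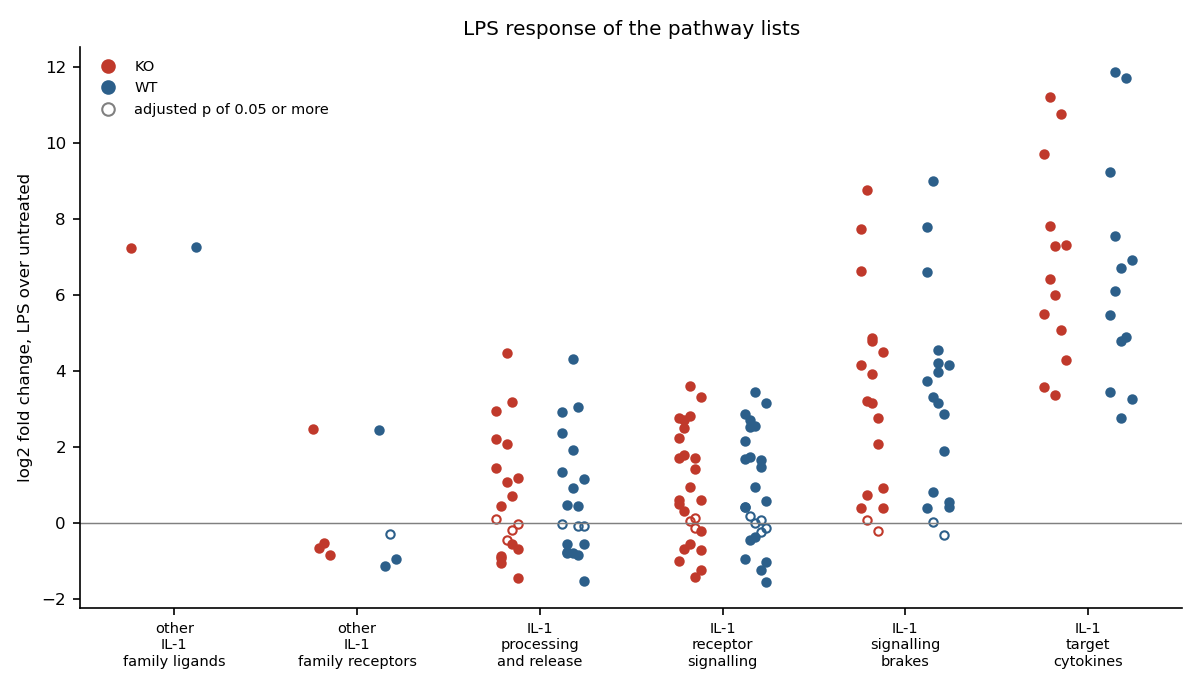
Log2 fold change with LPS over untreated of every tested gene in the 6 pathway lists, in KO (left of each pair) and WT cells, with filled points for genes called at an adjusted p under 0.05. Most genes listed as brakes and all 13 target genes lie above 0 in both genotypes, while the processing and signalling lists hold genes on both sides.

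The targets spanned a wide range. The adhesion molecule Icam1 rose by 5.50 ± 0.10 in KO and 5.48 ± 0.10 in WT cells, and the prostaglandin synthase Ptgs2 by 9.71 ± 0.21 in KO and 9.24 ± 0.21 in WT cells. Il6 had 2337 to 3789 reads in KO and 1564 to 2350 in WT libraries with LPS, against 0 to 3 in untreated libraries, and Nos2, the inducible nitric oxide synthase, had 11685 to 14232 in KO and 5860 to 9171 in WT libraries, against 1 to 16. The list's median was 6.43 in KO and 6.10 in WT cells, or 5.99 in KO and 5.48 in WT cells with Csf2, which had 0 reads in every untreated library, at its bound. Between genotypes with LPS, the adhesion molecule Vcam1 (1.0 ± 0.11, adjusted p = 0.0020) and the neutrophil attractant Cxcl3 (0.91 ± 0.17, adjusted p = 0.0383) were higher in KO, and 11 of the 13 were not called. The Cxcl3 call was lost without KO LPS replicates 1 or 3 or WT LPS replicate 3 (adjusted p = 0.140 to 0.191), with the replicate block (0.111), on log2(RPKM + 1) (0.0841) and with all 12 libraries fitted (0.0632), with differences of 0.81 to 0.92. Fitting all 12 libraries also ended the Vcam1 call, at 1.01 ± 0.28 (adjusted p = 0.112). No gene of the processing, signalling or brake lists was called between genotypes with LPS, beside 1.13% of all genes, and their most abundant members were Txnip, Sqstm1 and Tnfaip3. Without LPS and in the test of the difference of responses edgeR called no gene of any kind.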

How the data were processed

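Read counts per RefSeq transcript and RPKM values were deposited by the authors for 12 libraries in 2 tables of each kind, 1 per condition. Per the labels' protocols, 700 ng of RNA was made into libraries with the KAPA mRNA HyperPrep kit and read as single-end 50 bp reads. STAR 2.5.2b, SAMtools 1.3.1 and mm10 are named in the submitters' processing notes. Neither the counting program nor its strand setting was given in the sources used here, nor were the deleted exons. The authors' RPKM values are scaled to transcript length and to each library's total.

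The deposited counts of 35745 transcripts were named from RefSeq (35435) or GENCODE (193). The 117 unnamed ones held 0.259% to 0.738% of counts and were left out. The transcript with the most reads stood for each of 24441 genes. The members and gene lists were chosen with earlier results of these data known. All 8 members matched the RefSeq promoter table of GRCm38.p6. Genes passing filterByExpr (minimum count 10 in 3 libraries) were tested with edgeR 4.0.16 in R 4.3.3: TMM scaling, the quasi-likelihood test, Benjamini-Hochberg adjustment over all genes, and a threshold of 0.05. Genotypes were compared over the 6 libraries of a condition; LPS effects and their difference over all 12. Standard errors are the log2 change divided by the root of F. Pathway genes were named as up to 4 past the threshold per list and comparison by smallest p, or the most expressed where none passed, plus genes singled out after their values were seen (Il18r1 and Csf2); likeness was ranked by the smallest RMS difference. The fits were tested on simulated counts with 200 changed genes. Alternatives used DESeq2 1.42.0, limma 3.58.1 on log2(RPKM + 1) and log2(RPKM + 0.1), other filters, scalings and transcripts, and left-out libraries; leaving WT replicate 1 out of the WT LPS effect was added after seeing the data. KO LPS and untreated libraries of the same number deviated together from their group means (correlations 0.251, 0.454 and 0.197), as did WT ones (0.567, 0.559 and 0.297), so the numbers pair libraries in the LPS comparisons. The main LPS tests and the test of their difference did not use this pairing. With the replicate block, the standard error of the LPS change in KO cells was 0.105 against 0.210 for Il1b. For Il1rn it was 0.139 against 0.128. No 2 libraries agreed within sampling noise.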

Additional observations from a re-analysis of the deposited data

How the results depend on the processing

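The 7 LPS increases in each genotype kept their direction in every alternative; calls numbered 6 or 7 in KO cells and 7 or 8 in WT cells without single libraries, and 6 in each on log2(RPKM + 1). Between genotypes, the number of members called without LPS was 0 to 2 without single libraries and 1 with all 12 libraries fitted. The 2 were Il1r1 and Il1r2, without untreated WT replicate 1. Both were tested there through their KO libraries alone, and that fit called 749 of 11814 genes. With LPS the number of members called was 0 to 1 without single libraries, and 1 with the DESeq2 test and with all 12 libraries. In the difference of responses it was 1 without WT replicate 1 in both conditions and 0 without any single library.

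Of all genes, untreated calls between genotypes numbered 0, but 9 with no filter, 49 with DESeq2, 27 with all 12 libraries and 749 without untreated WT replicate 1. With LPS they numbered 127, but 277 with no filter, 265 with DESeq2, 47 with the replicate block, 17 without replicate 2 of every group and 17 to 545 without single libraries. In the difference of responses, 8 genes were called on log2(RPKM + 1) and 24 without WT replicate 1. The causes were not tested.

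Changes near 0 turned sign. Il18 between genotypes was -0.17 untreated and -0.0010 with LPS without replicate 2 of every group, and without single libraries -0.11 to 0.47 untreated and -0.013 to 0.23 with LPS. Il18bp was -0.28 to 0.22 untreated and -0.28 to 0.030 with LPS without single libraries. Il1rap untreated was -0.010 with the lowest transcript and -0.025 to 0.071 without single libraries. With LPS, Il1rap was 0.0014 with limma-voom, 0.32 with the lowest transcript, 0.043 without replicate 2, 0.032 and 0.038 on RPKM with pseudocounts 1 and 0.1, 0.0075 with all 12 libraries and -0.091 to 0.077 without single libraries. The LPS change of Il1r2 in KO cells was -0.16 and -0.47 on RPKM and -0.087 to 0.50 without single libraries, and in WT cells -0.10 to 2.38. In the difference of responses, Il1b was 0.044 on log2(RPKM + 1). Il18 was -0.0038 with DESeq2 size factors, -0.048 with limma-voom, -0.0058 with the replicate block, -0.042 and -0.062 on RPKM, -0.25 without WT replicate 1 in both conditions and -0.39 to 0.19 without single libraries. Il18bp was -0.0096 with DESeq2 size factors, -0.0013 with the DESeq2 test, -0.057 with limma-voom, -0.12 without replicate 2, -0.028 with the block, -0.056 and -0.062 on RPKM, -0.20 without WT replicate 1 and -0.33 to 0.17 without single libraries. Il1rap was -0.021 with DESeq2 size factors, -0.018 with the DESeq2 test, -0.028 and -0.040 on RPKM and -0.093 to 0.082 without single libraries, and Il1r2 -2.25 to 0.24. The replicate block changed no member's call: 0 members were called between genotypes in either condition, 7 with LPS in KO, 7 in WT cells and 0 in the difference. Between genotypes, libraries of the same number correlated at 0.055, 0.180 and 0.263 untreated and -0.029, 0.194 and 0.116 with LPS (the best match of KO replicate 1 was WT replicate 3, and of KO replicates 2 and 3 their own number). Not every pair was above 0.1, so the numbers were not taken to pair KO with WT libraries, although replicate 2 of each group shares its Y-linked and Xist levels as well. Depth limits Il1r1 and Il1r2, with at most 36 reads a library.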
